A study of Mus musculus with 14 samples.

Results

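The bone-forming cells of mouse marrow stroma were described here from 118 single cells, 55 of a PyMT mouse library and 63 of a wild-type (WT) mouse library. They are cluster 5 of the authors' 6 numbered clusters, kept where a cell had at least 500 genes and under 10% of its unique molecular identifiers (UMIs, counted RNA molecules) from mitochondrial genes. They made up 118 of 5381 kept stromal cells, out of 6071 deposited. The cluster had been proposed as a mix of osteoblast and cartilage cells. Its cells carried the osteoblast genes, but of the cartilage genes they held mainly the fibrillar collagens Col2a1, Col11a1 and Col11a2 and none or nearly none of the genes particular to chondrocytes, so they are called osteoblast-like cells below and no chondrocytes are named.

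The study asks how marrow stroma and blood progenitors differ when a breast tumour grows at a distance. The PyMT mouse carries the polyoma middle T oncogene and develops mammary tumours; the WT mouse does not. Both stromal libraries hold sorted marrow stromal cells captured in droplets, with 1 library for each genotype. A second model is used in bulk RNA of marrow mesenchymal stem cells (MSC): 4 libraries of mice with Py230 tumours and 4 of tumor-free mice. Py230 is a tumour cell line derived from a PyMT mammary tumour. The labels give neither the strain, age and number of mice behind a library, nor the promoter of the oncogene, the sort gates or the place of the tumour.

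Osteoblasts are the cells that lay down bone. They secrete type I collagen, the main fibre of bone matrix, and proteins such as osteocalcin, osteopontin and bone sialoprotein that bind mineral or cells, and they then let calcium phosphate form in that matrix. The transcription factors Runx2 and Sp7 (osterix) direct this lineage, and a cell that becomes buried in bone turns into an osteocyte, marked by Dmp1, Mepe and Sost. Chondrocytes instead make a matrix of type II, IX and XI collagen and the proteoglycan aggrecan under the control of Sox9.

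The osteoblast-like cells were the deepest of all clusters, with a median of 9662 UMIs per cell in the PyMT library and 11233 in the WT library, against medians of 1116 to 5655 in the other clusters. Their summed depth was 647383 UMIs in the PyMT library and 752716 in the WT library. No cell of the cluster was left out for too few genes. Its mitochondrial limit removed 18 PyMT and 14 WT cells. The highest share inside the limit was 9.98% in each library, and the lowest outside it was 11% in PyMT and 10.3% in WT. None of the 118 shared a cell barcode between the libraries, and a doublet caller marked none of them. It marked 0.112% of PyMT and 1.56% of WT cells, so the PyMT share is too low for the caller to have worked there. Each genotype has a single library, so no test between PyMT and WT is given, and every interval below is a 95% interval that covers counting error only.

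The 6 marker genes set the cells apart from all other stroma, which describes the cluster and tests nothing, since the clustering used these genes. Bglap and Bglap2 encode osteocalcin, a small protein that osteoblasts release into bone matrix. Bglap stood at 18396 CPM (UMIs scaled to a total of 1e6 per library) in PyMT and 34411 CPM in WT osteoblast-like cells, and over both libraries 1089-fold higher than in all other kept cells (interval 1005 to 1183). Bglap2 was 490-fold higher and its relative Bglap3 305-fold higher. Ifitm5, a membrane protein of mineralising osteoblasts, was 203-fold higher, at 382 CPM in PyMT and 523 CPM in WT. Col1a1, the first chain of type I collagen, took 112823 CPM in PyMT and 99924 CPM in WT and was 72.8-fold higher than elsewhere. Col11a2 was 218-fold and Col2a1 90.7-fold higher. All 6 lie on the reference build GRCm38 as protein-coding genes: Bglap on chromosome 3 from 88383501 to 88384464, Bglap2 on the same chromosome from 88377736 to 88378699, both on the minus strand, Ifitm5 on chromosome 7, Col1a1 on 11, Col2a1 on 15 and Col11a2 on 17. Bglap and Bglap2 are near-identical copies. Of all 50-base stretches in the last 300 bases of the Bglap transcript, 80.1% also occur in Bglap2, so the split of reads between the copies is uncertain.

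Genes outside the marker list followed the same line. Slc13a5, a citrate transporter of the cell membrane, had 195 UMIs in 41 of the 118 cells and none in any other kept cell, which makes it at least 1131-fold higher against a floor of 3 counts over all other cells. Cpz, a secreted carboxypeptidase, had 263 UMIs against 3 elsewhere (1526-fold, interval 516 to 7445). Car3, a carbonic anhydrase, stood at 2292 CPM in PyMT and 3005 CPM in WT and was 354-fold higher than elsewhere. The remaining genes among the 20 with the highest ratio included Lipc (hepatic lipase), Entpd3 (an enzyme that splits extracellular nucleotides) and Col13a1 (a transmembrane collagen), at 893-fold, 346-fold and 158-fold. Alpl (tissue-nonspecific alkaline phosphatase) and the transcription factor Sp7 were 16.9-fold and 14.9-fold higher. Runx2, in contrast, was 1.59-fold higher, and the Cxcl12-rich cells of cluster 0 held it at 406 CPM. Osteocyte genes were thin: Dmp1 was found in 46 of the 118 cells, Mepe in 5 and Sost in none.

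Markers of blood and vessel cells were at or near 0 in the cluster, whereas some genes of other stromal cells were shared. All 13 osteoblast markers were found, and together they took 153944 CPM in PyMT and 164462 CPM in WT cells, against at most 7022 CPM in any other cluster. The 4 leukocyte markers and the 5 B cell markers had no UMI. Of 8 macrophage markers 7 were at 0, C1qa and Csf1r among them, and the eighth, Cd68, had 1 UMI. Endothelial markers summed to 24.7 CPM in PyMT and 1.33 CPM in WT, with Pecam1 and Cldn5 at 0. Among osteoclast genes Ctsk, a protease also made by other stromal cells, had 288 UMIs, while Calcr and Ocstamp were at 0. Fibroblast markers summed to 3766 CPM in PyMT and 3744 CPM in WT, nearly all of it Dcn (decorin, a collagen-binding proteoglycan), with Ccl11 and Cd34 at 0. The same list stood at 24348 CPM in PyMT and 28852 CPM in WT cells of cluster 1. Markers of LepR+ stroma, the main population here, summed to 1013 CPM in PyMT and 611 CPM in WT. Cxcl12, the chemokine of that population, supplied 300 of the 656 UMIs in PyMT and 201 of the 460 UMIs in WT. Its level was 358 CPM in the osteoblast-like cells, against 19221 CPM in cluster 0.

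The cartilage side of the proposed label rested on Col2a1 alone among the genes scored. Col2a1, the type II collagen of cartilage, had 1491 UMIs in 77 of the 118 cells. The 12 other cartilage genes of the score had 12 UMIs together, so Col2a1 made 99.2% of it. Of its 13 genes 7 had no UMI in the cells: Col9a3, Matn1, Snorc, Cnmd, Ucma, Cytl1 and Epyc. Acan, the core protein of aggrecan, had 5 UMIs and Hapln1, which links it to hyaluronan, had 1. Col10a1, the collagen of hypertrophic cartilage, had none, and Sox9, the main transcription factor of chondrocytes, had 23 UMIs in 13 cells. The cells that held Col2a1 also held bone genes. Of the 77, all 77 had a UMI of Ibsp (bone sialoprotein), 76 of Col1a1, 69 of Bglap and 55 of Ifitm5. Only 2 had a UMI of Acan, 6 of Sox9 and 3 of any type IX collagen gene.

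**Figure D1:**
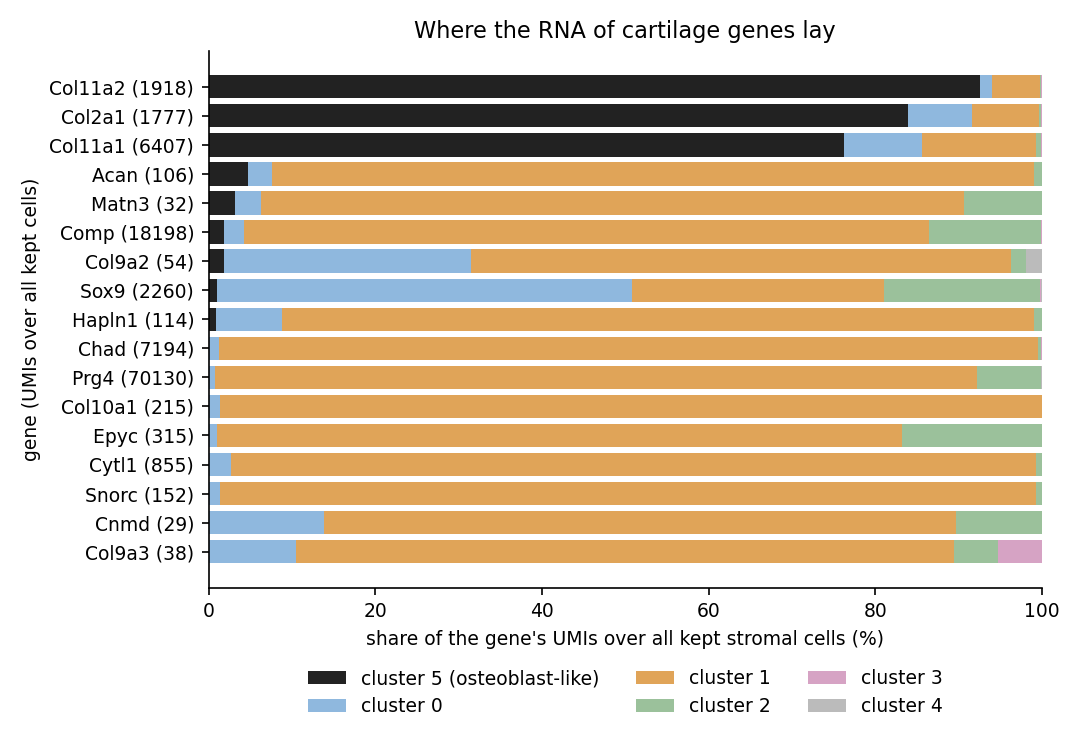
Share of each cartilage gene's UMIs that lay in each authors' cluster, over all kept stromal cells of both libraries, for genes with at least 20 UMIs. The black bars of the osteoblast-like cells hold 92.6% of Col11a2, 83.9% of Col2a1 and 76.3% of Col11a1, whereas every other gene lies mostly in other clusters.

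The rest of the cartilage RNA lay elsewhere. Cluster 1 held 826 of 855 UMIs of Cytl1, 149 of 152 of Snorc, 97 of 106 of Acan, 103 of 114 of Hapln1 and 212 of 215 of Col10a1. The osteoblast-like cells held 1776 of 1918 UMIs of Col11a2 and 4886 of 6407 of Col11a1. Comp, a matrix protein of cartilage and tendon, had 337 of its 18198 UMIs in the osteoblast-like cells. The type XI chains Col11a1 and Col11a2 make a collagen that forms mixed fibrils with type II collagen in cartilage. Col2a1 and Col11a2 occurred together in 50 cells. A background share comes from cluster 3, whose cells carried endothelial markers at 5505 CPM in PyMT and 4985 CPM in WT and should lack these genes: 1 of 120 PyMT cells and 0 of 55 WT cells had a UMI of Col2a1. At 1500 UMIs drawn from each cell, Col2a1 was found in 38.2% of PyMT and 55.6% of WT osteoblast-like cells.

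**Figure D2:**
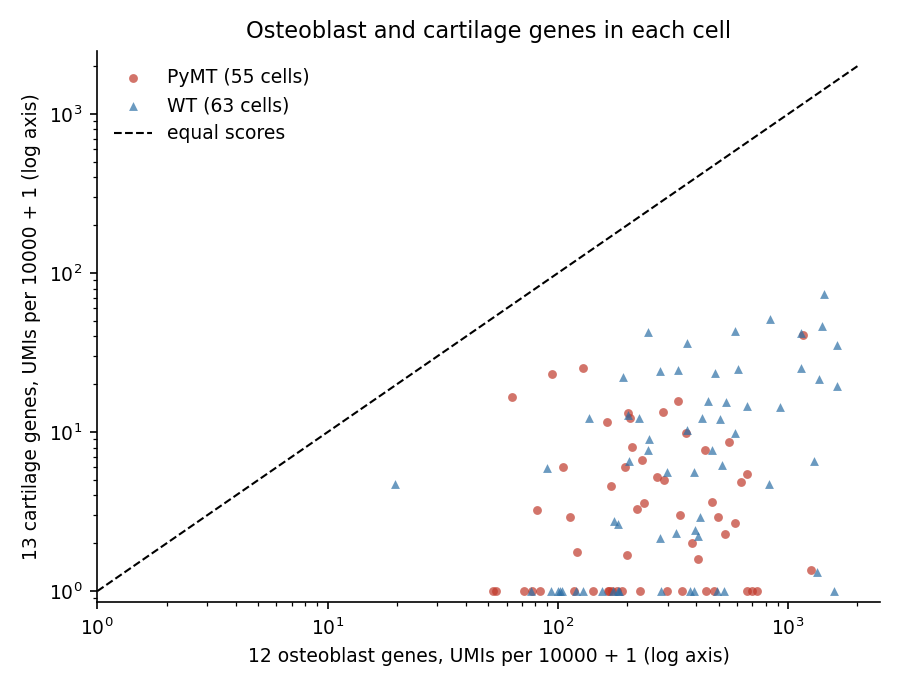
Each point is 1 osteoblast-like cell, with the summed UMIs per 10000 of 12 osteoblast genes on the x axis and of 13 cartilage genes on the y axis, both plus 1 on log axes. All 55 PyMT (circles) and 63 WT cells (triangles) lie below the dashed line of equal scores.

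Cell by cell, no member leaned to cartilage on this score. The score itself leans to bone, because Ibsp counts on its osteoblast side. Every member held Ibsp, but so did 89.7% of PyMT and 91.4% of WT cells of cluster 0. Ibsp and Alpl were also listed here as genes of hypertrophic cartilage. A score without Ibsp was not run. The osteoblast genes ranged from 51.2 to 1254 UMIs per 10000 in PyMT cells (median 226) and from 18.6 to 1628 in WT cells (median 373). The cartilage genes ranged from 0 to 39.8 (median 1.93) in PyMT cells and from 0 to 73.0 (median 5.56) in WT cells. With a cell called chondrocyte-side where its cartilage score was the higher, 0 of 118 cells were. That allows a share of such calls of up to 2.54% by the limit of 3 counts of the total and up to 3.08% by the Clopper-Pearson interval. Because of the lean of the score, neither value bounds the share of cartilage cells. The cell nearest to the limit still had a log2 ratio of cartilage to osteoblast score of -1.93, and no cell lay within 1 log2 unit of equal scores.

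The members varied among themselves between osteocalcin-rich and osteopontin-rich cells, which were chosen as the ends of the axis described here. Spp1 encodes osteopontin, an acidic protein that binds mineral and cell-surface integrins, and Mmp13 encodes collagenase-3, which cuts fibrillar collagen. With each cell drawn down to 1500 UMIs, Spp1 ran opposite to the summed osteocalcin genes (Spearman rho -0.73 over 118 cells), and so did Mmp13 (-0.71), while Spp1 and Mmp13 ran together (0.79). Ibsp (-0.45) and Cxcl12 (-0.44) leaned the same way as Spp1. On the osteocalcin side stood the matrix genes Sparc (osteonectin, 0.72), Col1a2 (0.71), Col1a1 (0.69), Col11a1 (0.68) and Col11a2 (0.67), and then Car3 (0.59) and Smpd3 (0.57), a sphingomyelinase needed for mineral formation. Col1a1, Col1a2 and Sparc were above 0 with osteocalcin and below 0 with Spp1 in each library on its own. These are descriptions across cells of 2 libraries for 106 genes compared, and the thinned counts still followed depth. After thinning, the osteocalcin sum ran with the original depth of a cell (rho 0.58) and Spp1 against it (-0.48). Sparc (0.77) and Col1a2 (0.74) also ran with that depth, and Mmp13 against it (-0.52). The part of depth in this axis was not tested.

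The sequences upstream of Bglap, Spp1 and Mmp13 are shown because these genes mark the 2 ends of that axis. They are the 250 bases before each start in RefSeq's GRCm38.p6, 5′ to 3′ on the gene's own strand, at chr3:88384467-88384716 on the minus strand for Bglap, chr5:104434861-104435110 on the plus strand for Spp1 and chr9:7272264-7272513 on the plus strand for Mmp13. The core that Runx factors such as Runx2 bind, ACCACA or on the other strand TGTGGT, is in capitals.
Bglap: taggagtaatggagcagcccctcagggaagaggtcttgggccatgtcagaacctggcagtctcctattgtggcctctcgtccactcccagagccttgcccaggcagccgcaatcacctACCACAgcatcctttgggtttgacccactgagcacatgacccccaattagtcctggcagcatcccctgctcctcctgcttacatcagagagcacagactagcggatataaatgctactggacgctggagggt
Spp1: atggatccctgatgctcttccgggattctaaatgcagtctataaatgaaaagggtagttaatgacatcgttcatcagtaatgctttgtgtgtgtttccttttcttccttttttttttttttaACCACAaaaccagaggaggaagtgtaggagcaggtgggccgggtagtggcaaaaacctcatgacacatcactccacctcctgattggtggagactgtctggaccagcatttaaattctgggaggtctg
Mmp13: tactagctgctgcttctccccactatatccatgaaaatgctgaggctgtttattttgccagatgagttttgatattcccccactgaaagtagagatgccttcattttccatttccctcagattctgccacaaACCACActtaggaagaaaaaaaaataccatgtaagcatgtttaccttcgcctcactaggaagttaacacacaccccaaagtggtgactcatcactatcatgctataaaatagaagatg
Each window held the core once, as ACCACA, with its first base at 132 bases before the start in Bglap, 128 in Spp1 and 118 in Mmp13. Of 14 genes looked up 10 were in the table, and the windows of the other 7 (Bglap3, Ifitm5, Col11a2, Ibsp, Phex, Cpz and Slc13a5) held none. Of all 32851 windows 4614 (14%) held at least one. A match of these letters is a description and not a bound site.

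**Figure D3:**
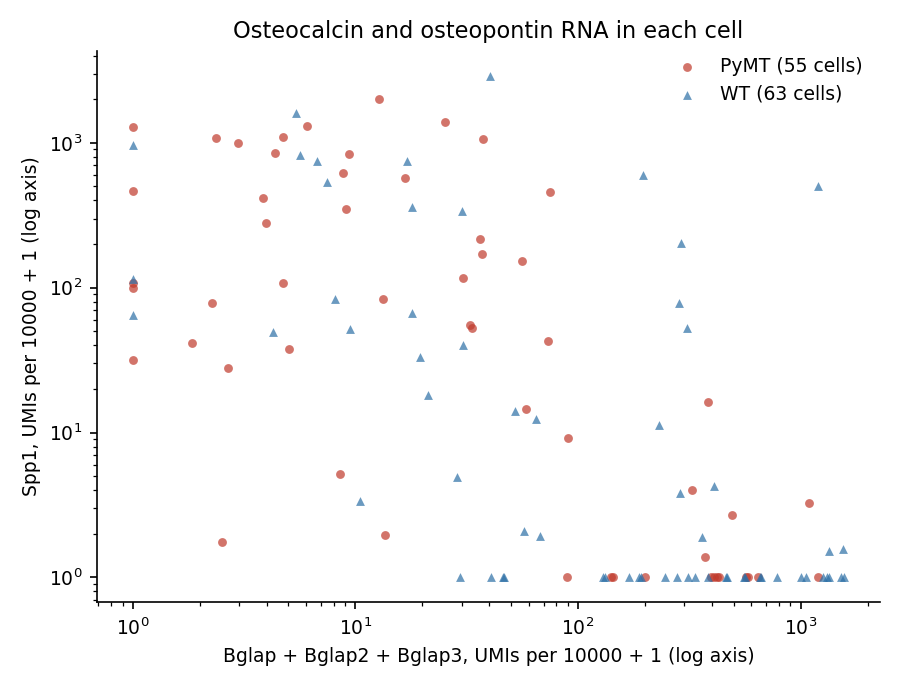
Each point is 1 osteoblast-like cell, with the summed UMIs per 10000 of Bglap, Bglap2 and Bglap3 on the x axis and of Spp1 on the y axis, both plus 1 on log axes; circles are PyMT cells and triangles WT cells. Cells rich in osteocalcin mostly have little or no Spp1, and cells rich in Spp1 mostly have little osteocalcin.

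The spread over cells was wide at both ends. Bglap ranged from 0 to 810 UMIs per 10000 in PyMT cells, with a median of 9.01, and from 0 to 1119 in WT cells, with a median of 98.4. Spp1 ranged from 0 to 2021 in PyMT cells, with a median of 51.7, and from 0 to 2898 in WT cells, with a median of 0.93. The 2 libraries overlapped over nearly the whole of both ranges, and the PyMT median lay nearer the Spp1 end. Ibsp, in contrast, was found in every cell, with medians of 77.7 in PyMT and 79.7 in WT. Bglap was found in 80.0% of PyMT and 95.2% of WT cells, and in 65.5% and 87.3% of them once each cell was drawn down to 1500 UMIs. In cluster 3, as background, 0.83% of PyMT and 3.64% of WT cells had a UMI of Bglap, at median depths of 3550 and 2750 UMIs.

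The osteoblast-like cells were 1.72% of kept PyMT cells (55 of 3191, exact interval 1.30 to 2.24) and 2.88% of kept WT cells (63 of 2190, interval 2.22 to 3.67). The intervals overlap slightly. Cluster 0 took 70.3% of PyMT and 44.6% of WT cells, and shares in one library must sum to the whole. Among kept cells outside cluster 0, the osteoblast-like cells were 5.80% in PyMT (55 of 949 cells) and 5.19% in WT (63 of 1213 cells), so the order of the libraries turned with the denominator. The sort gates also set these shares, and their part was not tested.

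Between the libraries, the summed matrix RNA shifted in parts and not as a whole. In summed UMIs, osteocalcin RNA and Col2a1 were lower in PyMT osteoblast-like cells, and the 2 chains of type I collagen stood within 1.13-fold. Spp1, Mmp13 and the early stress genes were higher. The median PyMT cell, however, held less Col1a1, Col1a2 and Sparc than the median WT cell, as given below. Over all 6174 genes with at least 20 UMIs in the 118 cells, 535 were at least 2-fold higher in PyMT (8.67%) and 136 at least 2-fold lower (2.2%), and the median gene had a log2 ratio of 0.22. With the totals rescaled by TMM factors, which set the middle of the genes to -0.00, the split was 246 higher (3.98%) and 277 lower (4.49%). Ratios below are of CPM and are to be read against the shift of 0.22. Of 81 ribosomal protein genes 78 were below 0, beside 2227 of all 6174 genes. The median of the ribosomal protein genes was -0.34, against -0.24 in cluster 0. Gm42418, a transcript that overlaps ribosomal RNA sequence, stood at 21644 CPM in PyMT and 48696 CPM in WT. It was also lower in clusters 0, 1 and 2, at log2 ratios of -1.53, -1.30 and -1.39. The part of these abundant RNAs in the other ratios was not tested.

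In the bone matrix list, 10 of 11 genes reached 20 UMIs, with a median log2 ratio of 0.15 beside 0.22 over all genes. Of the 10, 0 were 2-fold higher and 2 were 2-fold lower, beside 8.67% and 2.2% of all genes. Under TMM factors 3 were 2-fold lower, beside 4.49% of all genes. All of these were osteocalcin genes, and the split of reads between Bglap and Bglap2 is uncertain, so they are not separate members. Bglap had 11909 UMIs in PyMT and 25902 in WT cells, a log2 ratio of -0.90 (interval -0.93 to -0.87). Bglap2 stood at 7774 CPM in PyMT and 15646 CPM in WT (-1.01) and Bglap3 at 558 CPM in PyMT and 1407 CPM in WT (-1.34). No single cell decided this: the cell with the most Bglap held 18.5% of it in PyMT and 10.5% in WT, and without the top cell the ratio was -0.81. In cluster 0, which held Bglap at 3.53 CPM in PyMT and 31.1 CPM in WT, the log2 ratio was -3.14, with 40.9% of the WT UMIs in 1 cell. The part of free RNA in these values was not tested.

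Col1a1 was at 112823 CPM in PyMT and 99924 CPM in WT (log2 0.18, interval 0.16 to 0.19), and Col1a2, the second chain of type I collagen, at 72422 CPM in PyMT and 64762 CPM in WT (0.16). These ratios turned with the scaling, to -0.05 and -0.06 under TMM factors and -0.10 and -0.02 as means over cells. The median cell went further the same way, with 187 UMIs of Col1a1 per 10000 in PyMT and 692 in WT. For Col1a2 it held 135 in PyMT and 509 in WT. Sparc was level at -0.02 in summed UMIs, but the median cell held 95.1 UMIs per 10000 in PyMT and 227 in WT. Ibsp stood at 11522 CPM in PyMT and 10420 CPM in WT (0.15). Spp1 was higher, at 21202 CPM in PyMT and 12930 CPM in WT (0.71, interval 0.68 to 0.75), and without the WT cell that held 24.3% of that library's Spp1 the ratio was 1.10. The Spp1 ratio was -0.63 in cluster 0, 1.83 in cluster 1 and 3.27 in cluster 2. Dmp1, a phosphoprotein of early osteocytes, was at 372 CPM in PyMT and 247 CPM in WT (0.59), but 1 WT cell held 48.4% of the WT UMIs, the mean over cells gave -0.02, and without that cell the ratio was 1.53.

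**Figure D4:**
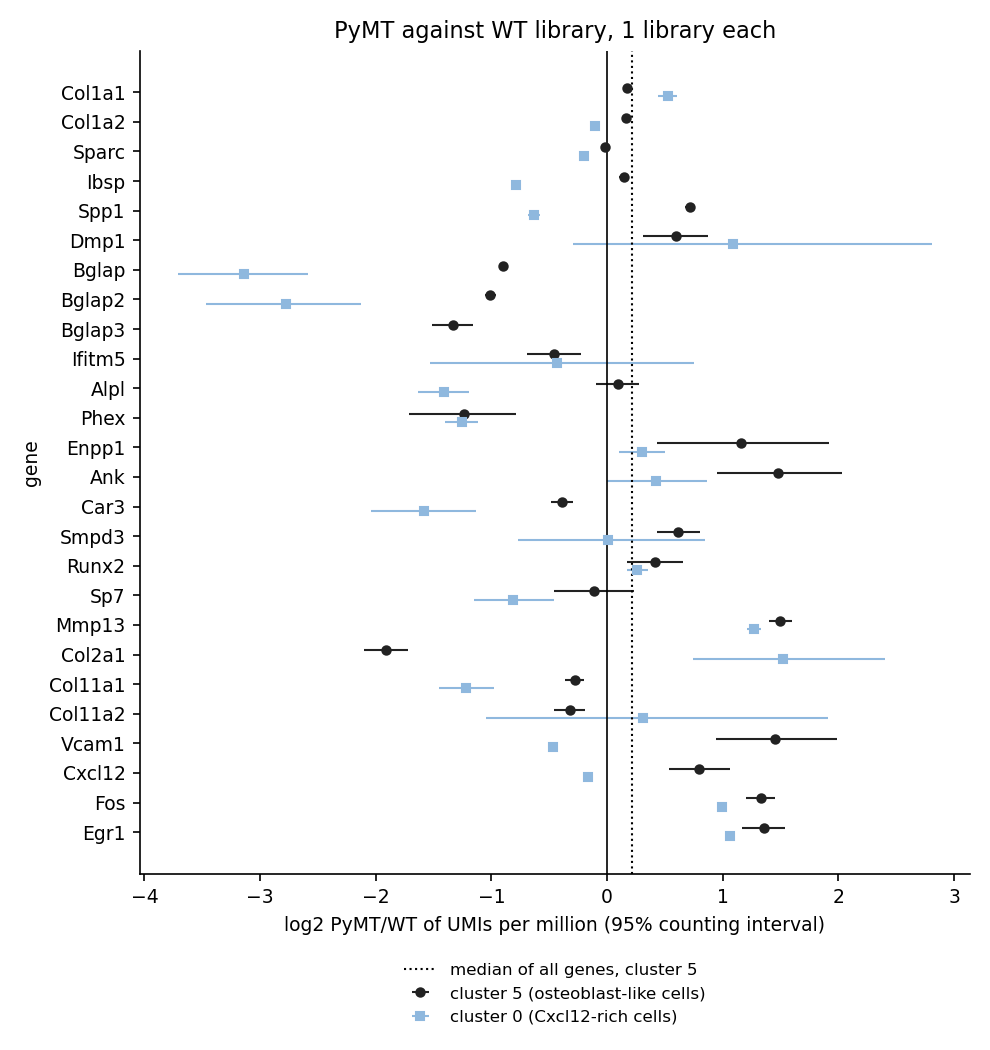
Log2 ratio of PyMT to WT CPM with its 95% counting interval, for osteoblast-like cells (black circles) and for cluster 0 (blue squares), with the dotted line at the median of all genes in osteoblast-like cells. Bglap, Bglap2, Bglap3, Phex and Col2a1 lie left of 0 in osteoblast-like cells, and Mmp13, Ank, Enpp1, Vcam1, Fos and Egr1 lie at or above 1.

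Of 11 measured mineralisation genes, 2 were 2-fold higher and 1 was 2-fold lower, with a median of 0.09, beside 8.67% higher and 2.2% lower over all genes. Under TMM factors 1 was higher and 1 lower, and Enpp1 was at 0.94, so the counts stand near those shares. Phex, a membrane endopeptidase whose loss causes phosphate wasting and soft bone, had 55 UMIs in 15 of 55 PyMT cells and 151 UMIs in 36 of 63 WT cells, a log2 ratio of -1.24 (interval -1.71 to -0.79). In cluster 0 the ratio was -1.26, but it was 2.61 in cluster 1 and 2.86 in cluster 2. The 2 genes above 2-fold both act on pyrophosphate, which holds mineral back. Ank, which moves it out of the cell, stood at 159 CPM in PyMT and 57.1 CPM in WT (1.48, interval 0.95 to 2.03), and Enpp1, which makes it from nucleotides, at 74.1 CPM in PyMT and 33.2 CPM in WT (1.16, interval 0.43 to 1.92). Both rest on few cells. For Ank, 1 PyMT cell held 34.0% of the PyMT UMIs and 1 WT cell 53.5% of the WT UMIs, and without the PyMT cell the ratio was 0.90. For Enpp1, 1 WT cell held 10 of the 25 WT UMIs, and without it the ratio was 1.88. Alpl, which breaks pyrophosphate down, was at 712 CPM in PyMT and 668 CPM in WT (0.09). Ifitm5 was lower (-0.46, interval -0.69 to -0.22), as was Car3 (-0.39), whereas Smpd3 was higher (0.62).

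Of the transcription factors of the lineage, 8 of 10 were measured and none passed 2-fold. Under TMM factors 1 was 2-fold lower, beside 4.49% of all genes. The lowest of the list by CPM was Dlx3, at -0.78 on 17 UMIs in PyMT and 34 in WT. Its interval, -1.72 to 0.10, included 0. Runx2 stood at 460 CPM in PyMT and 345 CPM in WT (0.41, interval 0.17 to 0.66). Sp7 was at 198 CPM in PyMT and 214 CPM in WT (-0.11, interval -0.46 to 0.23). In the signalling list 1 of 11 genes was 2-fold higher and 1 was 2-fold lower, also near the shares over all genes. The higher one was Tnfrsf11b (osteoprotegerin, a decoy that limits osteoclasts), with 18 UMIs in PyMT and 4 in WT, and 1 PyMT cell held 72.2% of the PyMT UMIs; without it the ratio was 0.56. The lower one was Dkk1, a Wnt inhibitor, with 9 UMIs in PyMT and 25 in WT. Pth1r, the parathyroid hormone receptor, was at 573 CPM in PyMT and 542 CPM in WT. In collagen processing (hydroxylases, chaperones, proteases and crosslinkers) 0 of 21 measured genes passed 2-fold in either direction, with a median of 0.30.

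Col2a1 was the gene with the farthest interval below 0. It had 278 UMIs in 32 PyMT cells and 1213 UMIs in 45 WT cells, or 429 CPM in PyMT and 1612 CPM in WT (log2 -1.91, interval -2.10 to -1.72). The PyMT cell with the most held 31.3% of that library's UMIs and the WT cell 16.4%, and without the top WT cell the ratio was -1.70. Per cell, Col2a1 ranged from 0 to 39.8 UMIs per 10000 in PyMT (median 1.30) and from 0 to 73.0 in WT (median 5.56). In cluster 0 the gene ran the other way, at 11.7 CPM in PyMT and 4.05 CPM in WT (1.52, interval 0.75 to 2.41). The type XI chains were closer between the libraries. Col11a2 was at 1117 CPM in PyMT and 1399 CPM in WT (-0.32) and Col11a1 at 3128 CPM in PyMT and 3801 CPM in WT (-0.28). Only 4 of 21 cartilage matrix genes reached 20 UMIs, and the fourth, Comp, was at 252 CPM in PyMT and 231 CPM in WT (0.12, interval -0.19 to 0.44), the one member above 0. Under TMM factors none of the 4 was above 0.

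Mmp13 had the third farthest interval above 0, and far more UMIs than the 2 genes before it. It had 2788 UMIs in 34 of 55 PyMT cells and 1148 UMIs in 28 of 63 WT cells, or 4307 CPM in PyMT and 1525 CPM in WT (a 2.82-fold ratio, with a log2 interval of 1.40 to 1.60). Cluster 0 gave 1.27. Of the factors that marrow stroma supplies to blood stem cells, 9 of 10 measured genes were above 0, beside 63.9% of all genes, with a median of 0.65. Past 2-fold was 1 of 10, near the 8.67% over all genes. Vcam1, an adhesion molecule for blood cells, stood at 164 CPM in PyMT and 59.8 CPM in WT (1.45, interval 0.94 to 1.99) and Cxcl12 at 463 CPM in PyMT and 267 CPM in WT (0.80, interval 0.53 to 1.06). In cluster 0 Vcam1 was at -0.47 and Cxcl12 at -0.17. In clusters 1 and 2, however, Cxcl12 was also higher in PyMT, at 1.03 and 0.18. A UMI of Cxcl12 was found in 85.5% of PyMT and 61.9% of WT osteoblast-like cells. In cluster 3, whose cells carried endothelial markers, it was found in 65.0% of PyMT and 41.8% of WT cells. The osteoblast-like cell with the most Cxcl12 held 18.3% of it in PyMT and 24.4% in WT. The part of free RNA in the Cxcl12 values was not tested. In the osteoblast-like cells Pdgfa, a growth factor, was at 0.87 and Vegfa, which draws in vessels, at 0.69.

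Immediate-early and heat shock genes were the list with the most members past 2-fold: 12 of 30 higher and none lower, against the 8.67% over all genes, with a median of 0.86. Under TMM factors 4 of 30 were 2-fold higher, beside 3.98% of all genes, and the median was 0.63. Fos, an early transcription factor, was at 2522 CPM in PyMT and 1006 CPM in WT (1.33, interval 1.20 to 1.45) and Egr1 at 1174 CPM in PyMT and 460 CPM in WT (1.35). Nr4a1 gave 1.59 and Klf6 1.40. The heat shock gene Hspa1b gave 1.17, which is below 2-fold under TMM factors. The same list had a median of 0.69 in cluster 0, with Fos at 0.996 and Egr1 at 1.06. Its part in the other differences was not tested. Interferon genes (0 of 11 measured past 2-fold, median -0.13) and glycolysis genes (0 of 15, median -0.02) had none past 2-fold in either direction by CPM. Under TMM factors 2 of 11 interferon genes were 2-fold lower, beside 4.49% of all genes, and 2 of 11 were above 0, beside 2879 of 6174. The glycolysis list still had 0. Of 6 measured cell cycle genes 4 were 2-fold higher, beside 8.67% of all genes, on few cells. Under TMM factors 3 were, beside 3.98% of all genes. The highest, Mki67, a marker of dividing cells, was at 3.47 (interval 1.41 to 6.61) on 19 UMIs in 2 PyMT cells, of which 1 held 68.4%, and 2 UMIs in 1 WT cell.

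The remaining genes with the farthest intervals were mostly rare. Higher in PyMT were Zcchc14 (log2 2.05), Tns3 (tensin 3, an adaptor of cell adhesions, 1.51), Ccn2 (connective tissue growth factor, 1.46), Atp13a3 (1.99), Nav2 (2.18) and Tead1 (a transcription factor of the Hippo pathway, 2.22). Carmil1, Ugcg and Tfpi were also among them, but 1 PyMT cell held 61.0% of the PyMT UMIs of Carmil1, 16 of 40 of Ugcg and 69.7% of Tfpi. Without the top cell their ratios were 1.43, 1.85 and 0.78. Lower in PyMT were Mt1 (metallothionein 1), with 21 UMIs in PyMT and 99 in WT (-2.02), and Npnt (nephronectin, an integrin ligand), with 10 UMIs in PyMT and 54 in WT (-2.22). Hist1h4d (-1.95), AY036118 (-1.16) and Lars2 (-0.95) were lower as well, AY036118 and Lars2 also in clusters 0, 1 and 2. Mgp (matrix Gla protein, which blocks calcification) gave -1.30, yet 1 WT cell held 73.2% of its WT UMIs, and without that cell the ratio was 0.57.

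The bulk MSC libraries are the replicated measure of tumour-bearing marrow stroma, with 4301380 to 9811250 counted reads each, and the choice of cells did not use them. They were rich in LepR+ stroma, with Lepr at 2756 to 3221 CPM in Py230 and 2947 to 3814 CPM in tumor-free libraries. Kitl, another gene of that population, overlapped between the groups as Lepr did, at 1325 to 1526 CPM in Py230 and 1439 to 1704 CPM in tumor-free libraries. Cxcl12 and Adipoq (adiponectin) did not overlap. Cxcl12 was at 8491 to 11470 CPM in Py230 and 18545 to 20789 CPM in tumor-free libraries. Adipoq was at 120 to 255 CPM in Py230 and 574 to 743 CPM in tumor-free libraries. The share of all genes without overlap was not counted. The part of the Cxcl12 and Adipoq shift in the bone and cartilage genes below was not tested. Osteocalcin RNA was a minor part. Bglap stood at 0.00 to 15.5 CPM in the 4 Py230 libraries and 1.6 to 11.5 CPM in the 4 tumor-free libraries. The split of reads between Bglap and Bglap2 may be uncertain here too. Col1a1 and Ibsp, which other stromal cells also held, were abundant. Col1a1 was at 390 to 9789 CPM in Py230 and 1228 to 4308 CPM in tumor-free libraries. Ibsp was at 626 to 2025 CPM in Py230 and 1699 to 2768 CPM in tumor-free libraries. The share of osteoblast RNA was not measured. In bulk RNA, fewer cells of a type and less RNA per cell cannot be told apart, and the labels do not say that the libraries came from separate mice, so the spread may be technical. Of the 82 bone and cartilage genes on the lists 64 were tested, and with edgeR's quasi-likelihood test at an adjusted p of 0.05 2 were higher and 7 lower with Py230, beside 1.99% and 2.74% of all 16317 genes. Their median log2 change was -0.06, and that of all genes 0.04.

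Phex was lower in the second model too. Its levels were 17.5, 34.7, 55.4 and 45.5 CPM in the Py230 libraries, against 151, 149, 144 and 135 CPM in the tumor-free libraries, with no overlap (log2 change -1.90, SE 0.27, edgeR adjusted p = 0.0046). Mmp13 was higher, at 1644, 1774, 1381 and 1698 CPM with Py230, against 1079, 1147, 974 and 895 CPM in tumor-free libraries (0.67, SE 0.12, edgeR adjusted p = 0.0045). Enpp1 was higher at 210 ± 43.2 CPM with Py230 and 142 ± 10.5 CPM tumor-free (SD, n = 4 each; edgeR adjusted p = 0.024). All 3 had the same direction as in the osteoblast-like cells of the PyMT mouse, where the intervals of all 3 excluded 0. The direction is not particular to those cells. Cluster 0 gave log2 ratios of -1.26 for Phex, 1.27 for Mmp13 and 0.30 for Enpp1. In clusters 1 and 2 Phex ran the other way, at 2.61 and 2.86, whereas Mmp13 and Enpp1 were above 0. Which cells the bulk levels came from was not tested. The Enpp1 call was lost without Py230 library 2 or 3 or any 1 of the 4 tumor-free libraries, with edgeR adjusted p between 0.0649 and 0.156.

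**Figure D5:**
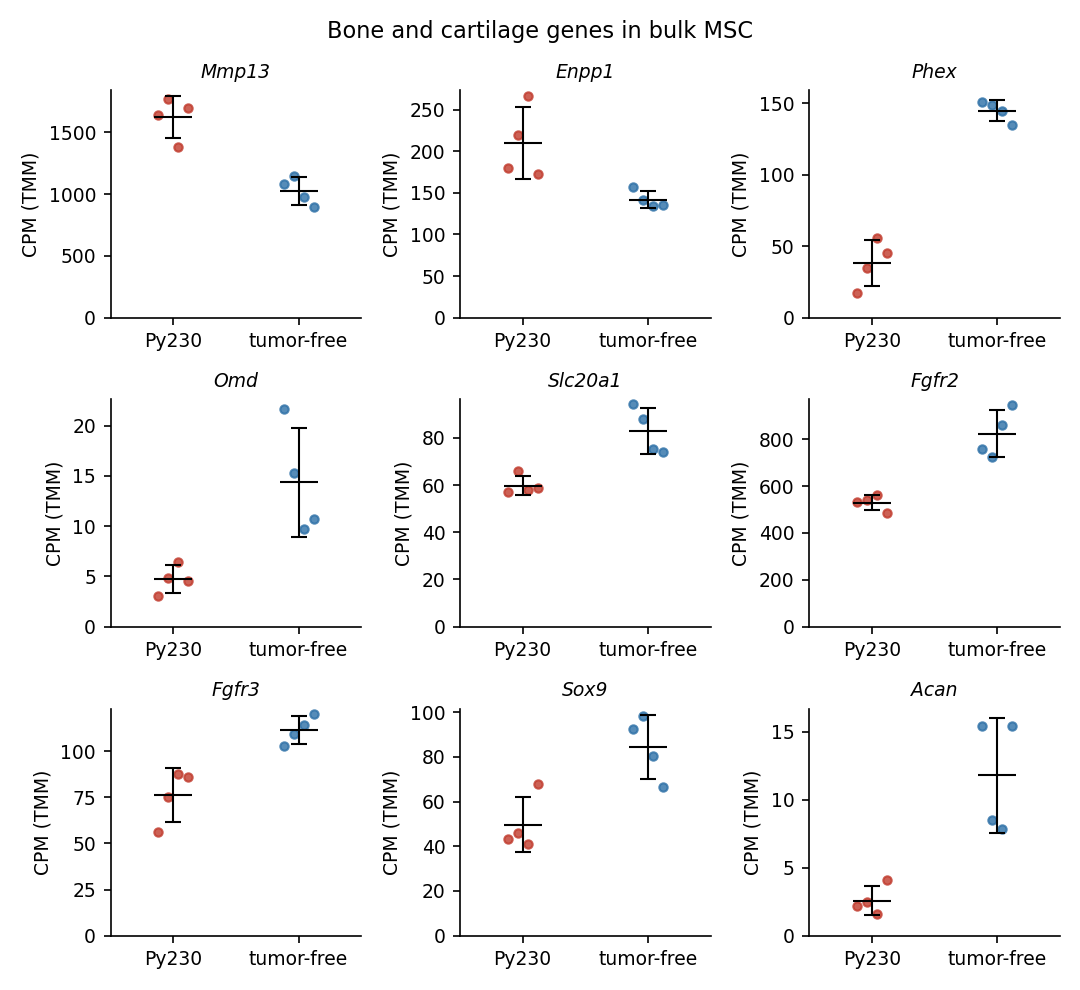
Levels of the 9 bone and cartilage genes past the threshold in bulk MSC, in CPM scaled by TMM factors, for 4 Py230 and 4 tumor-free libraries; points are libraries, and the bar and whiskers are the mean and SD. Mmp13 and Enpp1 are higher with Py230, the other 7 are lower, and the groups overlap only for Sox9.

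The other genes that passed were lower. Acan had 2.57 ± 1.07 CPM with Py230 and 11.8 ± 4.21 CPM tumor-free (SD, n = 4 each; log2 change -2.24, edgeR adjusted p = 0.0023). Omd (osteomodulin, a small proteoglycan of bone) had 4.70 ± 1.40 CPM with Py230 and 14.4 ± 5.45 CPM tumor-free (-1.57, edgeR adjusted p = 0.0073). Its log2 PyMT/WT ratio was 0.37 in the osteoblast-like cells (interval 0.01 to 0.72). In cluster 0 that ratio was -0.93 (interval -1.29 to -0.56), in cluster 1 -0.06 and in cluster 2 0.12. The growth factor receptors Fgfr2 and Fgfr3, both of which act on bone growth, fell by 0.64 and 0.55 on the log2 scale (edgeR adjusted p = 0.0038 and 0.027). In the osteoblast-like cells Fgfr2 gave -0.31 and Fgfr3 1.07, with intervals that included 0. In cluster 0 Fgfr2 gave -0.45 (interval -0.56 to -0.33). Fgfr3 gave -0.06 there and Sox9 0.16, with intervals that included 0. Sox9 was at 49.6 ± 12.4 CPM with Py230 and 84.4 ± 14.2 CPM tumor-free (SD, n = 4 each; edgeR adjusted p = 0.018), and the phosphate carrier Slc20a1 fell by 0.47 (edgeR adjusted p = 0.022). Leaving out 1 library at a time kept the calls of Phex, Mmp13, Acan, Omd and Fgfr2. Sox9 was lost without Py230 library 2 (edgeR adjusted p = 0.0656). Slc20a1 was lost without Py230 library 1 or 4 or tumor-free library 1 or 2 (adjusted p up to 0.0919), and Fgfr3 without Py230 library 2 or any 1 tumor-free library (up to 0.0858).

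The 6 markers of the osteoblast-like cells did not pass the bulk test. Col1a1 was at 390, 4709, 9789 and 2914 CPM in the Py230 libraries, against 2082, 2465, 4308 and 1228 CPM in the tumor-free libraries (log2 change 0.82, SE 0.89, edgeR adjusted p = 0.77). Among the Py230 libraries, library 1 held the least and library 3 the most of Col1a1, and the same was so for Bglap, Bglap2, Col11a2 and Col2a1. Bglap was at 7.86 ± 6.37 CPM with Py230 and 5.71 ± 4.19 CPM tumor-free (SD, n = 4 each; edgeR adjusted p = 0.88). Col2a1 was at 70.6 ± 46.8 CPM with Py230 and 115 ± 28.0 CPM tumor-free (log2 change -0.68, SE 0.45, edgeR adjusted p = 0.56), and passed without Py230 library 3 (-1.29, edgeR adjusted p = 0.0192). Of the 20 genes that set the cells apart in the single-cell data 17 were tested in bulk and 0 passed by edgeR at an adjusted p of 0.05, with a median log2 change of 0.58. At an unadjusted p of 0.05 edgeR counted 1, Col13a1. At an adjusted p of 0.05 DESeq2 counted 0 of the 15 genes for which it gave one. The SD of Col1a1 in the Py230 group was 3975 CPM on a mean of 4450 CPM, so these libraries set only a wide bound on osteoblast RNA.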

How the data were processed

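The deposited single-cell tables hold raw UMI counts per gene and cell, and the deposited cell metadata give the mitochondrial share as a fraction and a cluster number from integrated data, per the file headers. The bulk values deposited by the authors are whole-number counts of reads for each Ensembl gene. Per the submitters' processing notes, Cell Ranger 6.0.0, STAR 2.5.3a and Trim Galore were used with mm10; how bulk reads were assigned to genes, and with which strand setting, is not given in the sources used here. Droplet 3′ chemistry and a stranded total-RNA kit were used, per the labels' protocols.

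UMIs were summed per library over the 118 cells and scaled to the total. Ratios carry exact conditional binomial intervals and shares Clopper-Pearson intervals at 95%. Doublets were called with Scrublet in scanpy 1.11.5. Bulk counts were tested with edgeR 4.0.16 (TMM, filterByExpr, robust quasi-likelihood, Benjamini-Hochberg over all genes), and DESeq2 1.42.0 was an alternative. Both calculations were tested on simulated counts. In the bulk simulation the share of false calls was above the nominal level and most changes of 1.5-fold or 2-fold were missed, so bulk calls near the threshold are less certain.

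The cells and gene lists were chosen with earlier results of these data known. Single-cell genes were named as the 6 markers, the 20 with the highest ratio to other cells (at least 50 UMIs and 10 cells), the 12 in each direction whose interval lies farthest from 0 (at least 40 UMIs, 5 cells) and list members with at least 20 UMIs. Bulk genes were named where a bone or cartilage gene passed, besides the 6 markers. Chromosome positions come from GENCODE on GRCm38. Blood progenitors were not used here, and a result for a listed gene is not reported here.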

Additional observations from a re-analysis of the deposited data

Results flagged for a closer look

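Col2a1 differed in direction between the osteoblast-like cells, where its log2 PyMT/WT ratio was -1.91, and cluster 0, where it was 1.52 on 122 UMIs in PyMT and 15 in WT. Mgp gave -1.30 in the osteoblast-like cells and 1.15 in cluster 0, and its value in the osteoblast-like cells rests on 1 WT cell. With 1 library per genotype the differences between clusters were not tested. They were 2 of 27 genes looked at.

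In bulk MSC, the lowest Py230 library for Ifitm5, at 0.216 CPM, lay far from the other 3 of its group. The gene had only 38 reads over the 4 Py230 libraries, so this value lies near the floor. The same library, Py230 library 1, was also the lowest of its group for Bglap, Bglap2, Col1a1, Col11a2 and Col2a1. The Ifitm5 group was 1 of 30 groups of 4 libraries looked at, and chance marks about 1 in 20 such groups.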

How the results depend on the processing

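With all deposited cells, cells of at least 1000 genes or no marked doublets, the shares stayed within their intervals. Among cells outside cluster 0, a denominator chosen after seeing the data, they were 5.80% in PyMT and 5.19% in WT. With every deposited cell the osteoblast markers stood at 144277 CPM in PyMT and 158016 CPM in WT, also chosen after seeing the data. No chondrocyte-side cell appeared under any of the 4 alternatives, all of which kept Ibsp in the score.

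Genes at least 2-fold higher numbered 246 with TMM factors, 843 as means over cells and 1023 with a minimum of 10 UMIs, and those lower numbered 277 with TMM factors and 364 with that minimum. Mgp turned to 0.57 without its top cell. TMM factors changed the sign of 36 of 196 named or listed genes, and 14 of 46 past 2-fold fell below it. Leaving out the top cell did so for 19 and 17.

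In bulk MSC, a replicate block gave 176 genes higher and 237 lower over all genes and 4 of the listed bone and cartilage genes lower. The numbers do not pair the libraries, since same-numbered libraries deviated together at correlations of -0.39 to 0.02 and 1 of 8 correlated best with its own number. Listed genes higher were 4 without a filter on low counts and 5 with DESeq2, and listed genes lower 12 without that filter. Leaving out 1 library gave 134 to 304 genes higher and 230 to 426 lower over all genes, and 1 to 3 listed genes higher and 5 to 8 lower. Over these, Bglap ranged from -0.10 (without Py230 library 3) to 1.07, Col11a2 from -0.15 (without Py230 library 3) to 0.95 and Ifitm5 from -0.39 to 0.13 (without Py230 library 1), and none of these 3 passed the test in any. The cause of these moves was not tested. Depth limits genes with few UMIs in 118 cells.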
